A study of Mus musculus with 7 samples.

Results

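The laminins, nidogens and integrins include chains with which an epithelial cell builds and holds its basement membrane, and also chains typical of other cell types. Of these families, 37 genes were measured in sorted mouse prostate luminal cells. Members were taken by gene symbol: every Lama, Lamb or Lamc chain, Nid1 and Nid2, and every Itga or Itgb chain, leaving out genes that only carry the integrin name as binding partners or as Itgbl. This gave 10 laminin chains, 2 nidogens, 16 integrin alpha chains and 9 integrin beta chains out of 18193 genes, read by 80 probe sets. Itga11 and Itgad were not analysed here.

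The cells came from wild-type mice (WT, 3 arrays, A to C) and from T-ETV1 mice (4 arrays, A to D), in which the endogenous promoter of Tmprss2, a protease gene of prostate epithelium, drives a cDNA of human ETV1, an ETS transcription factor. Cells of both genotypes were sorted from the fraction without CD31, CD45 and Ter119, markers of vessel and blood cells, as lacking Sca1 and carrying CD49f, which is the product of Itga6. T-ETV1 cells were in addition GFP positive, a gate that the labels do not give for WT; what differs by genotype and what differs by this gate cannot be told apart. The series describes 3 biological replicates, while T-ETV1 has 4 arrays. The labels state neither age nor strain, nor how many animals went into an array.

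As background, a laminin is a trimer of an alpha, a beta and a gamma chain that self-assembles into a sheet under the cell, and nidogens link that sheet to the collagen IV network. Integrins are receptors of an alpha and a beta chain that bind laminins, collagens, ligands with an RGD sequence or, on leukocytes, counter-receptors on other cells. In the prostate, basal cells rest on the basement membrane with hemidesmosomes made from the alpha 6 and beta 4 integrin chains, which hold on to a laminin, while luminal cells face the lumen.

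Levels are given as log2(intensity + 16), the deposited linear intensity of a gene's brightest probe set after adding a constant, and differences on this scale understate those of dim genes. A difference is T-ETV1 minus WT with the standard error (SE) of limma, a linear model with a variance shared across genes, and adjusted p-values are Benjamini-Hochberg values over all 18193 genes. Levels of different genes cannot be set against each other, because probe sets differ in brightness. Luminal markers (7 genes, keratins and Pbsn among them) averaged between 12.83 and 13.03 on every array. These markers are bright, with mean intensities from 3866 (Tmprss2) to 12198 (Pbsn). Whether genes this bright could show a change in luminal content was not tested. Markers of basal cells averaged 7.68 to 9.95 in WT and 5.90 to 9.86 in T-ETV1, and those of leukocytes 5.57 to 10.48 and 5.50 to 8.38. WT C had the highest mean of the WT arrays, and T-ETV1 C that of the T-ETV1 arrays, in each list of other cell types. In some lists the WT arrays rose stepwise, as in the basal markers with 7.68, 9.04 and 9.95 on A to C. In the leukocyte markers WT A and WT B were alike, at 5.58 and 5.57, and WT C was at 10.48.

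The RefSeq promoter windows of 3 members are shown because Lamb2 and Lama2 were the members whose genotype groups did not overlap, and because Nid1 was the laminin or nidogen gene whose window held the ETS motif CCGGAA. Each window holds 300 bases around a gene's start, 5′ to 3′ on the gene's strand (build GRCm38.p6), and capitals mark a match to CCGGAA on either strand. The shorter ETS core GGAA was not searched for and is not marked, so an unmarked window may hold it.
Lamb2 (chr9:108479612-108479911, plus strand): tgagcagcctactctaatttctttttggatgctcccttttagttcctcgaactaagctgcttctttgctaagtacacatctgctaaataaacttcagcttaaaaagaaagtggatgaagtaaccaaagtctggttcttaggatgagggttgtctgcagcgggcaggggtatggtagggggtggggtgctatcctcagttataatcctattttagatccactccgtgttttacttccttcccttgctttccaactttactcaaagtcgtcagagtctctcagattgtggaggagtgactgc
Lama2 (chr10:27616893-27617192, minus strand): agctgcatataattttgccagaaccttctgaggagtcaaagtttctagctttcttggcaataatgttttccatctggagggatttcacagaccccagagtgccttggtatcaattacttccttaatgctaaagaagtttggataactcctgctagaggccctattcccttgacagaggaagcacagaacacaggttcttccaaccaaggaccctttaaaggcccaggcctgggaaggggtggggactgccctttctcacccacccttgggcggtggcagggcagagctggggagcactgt
Nid1 (chr13:13437352-13437651, plus strand): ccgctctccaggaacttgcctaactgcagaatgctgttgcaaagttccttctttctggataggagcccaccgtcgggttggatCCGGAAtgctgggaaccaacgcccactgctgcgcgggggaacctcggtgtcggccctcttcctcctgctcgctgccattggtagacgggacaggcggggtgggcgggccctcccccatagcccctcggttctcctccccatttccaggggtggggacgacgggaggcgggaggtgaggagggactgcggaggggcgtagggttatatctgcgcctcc
Of the members, 24 had a window, 27 windows in all. The letters CCGGAA were in 3 of the 27 (those of Nid1, Itgb1 and Itga3), and in 14.9% of the 32851 windows of all genes. The letters TGANTCA, the AP-1 motif, were in 3 of the 27 (Itga3, Itga9 and Itgax) and in 7.81% of all windows. A match to such short letters is a description of the sequence and not a site that was measured.

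Every laminin and nidogen gene had a lower mean in T-ETV1 than in WT, though none passed the test, and most integrin chains had smaller differences. The 12 laminin and nidogen genes had differences below 0, with a median of -1.63 and a range of -2.54 (Lama2) to -0.39 (Lama5). Of the 25 integrin chains 20 were below 0, with a median of -0.32 and a range of -1.57 (Itga4) to 0.32 (Itgb2l). Over all genes 55.6% were below 0 and the median was -0.026. No member passed the threshold of 0.05 on the limma adjusted p, and neither did any other gene (0 of 18193, 0%); the lowest adjusted p of a member was 0.628 for Lamb2. At an unadjusted p under 0.05 stood 5 members, Lamb2, Lama1, Nid2, Lama2 and Lama3, all lower, against 6.12% of all genes in either direction and 4.12% lower. The 5 were all laminin or nidogen genes, 5 of 12, and none of the 25 integrin chains was among them. Markers of endothelial, fibroblast and smooth muscle cells, which the sorted fraction should hold few of, were also all below 0. So were 7 of 8 basal and 8 of 10 leukocyte markers. What part these cell types had in the counts was not tested.

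That count moved with single arrays. It was 8 without WT A (against 6.63% of all genes), 2 without WT B (4.73%), 3 without T-ETV1 A (5.30%), also 3 without B of that genotype (5.33%), and 13 when T-ETV1 C was left out (9.84%). A count of 2 or 3 of 37 is near those shares. Without WT C the median difference was -1.16 for the laminins and nidogens and -0.0022 for the integrins, of which 13 of 25 were then below 0. With the replicate letter as a block (arrays A to C), 9 members had an unadjusted p under 0.05, of which 6 were laminin or nidogen genes, against 7.22% of all genes. Over all genes, the median difference was -0.026 as deposited, 0.019 after quantile normalization and 0.11 after median centring, and the share of genes below 0 was 55.6%, 46.0% and 32.2%. Of the genes at an unadjusted p under 0.05, 749 of 1113 were lower as deposited, 582 of 1188 after quantile normalization and 492 of 1195 after centring. All 12 laminin and nidogen genes were below 0 under each of these, and of the integrins 20, 18 and 16 of 25. In bulk samples such as these, fewer cells of a type and less RNA per cell cannot be told apart.

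**Figure D1:**
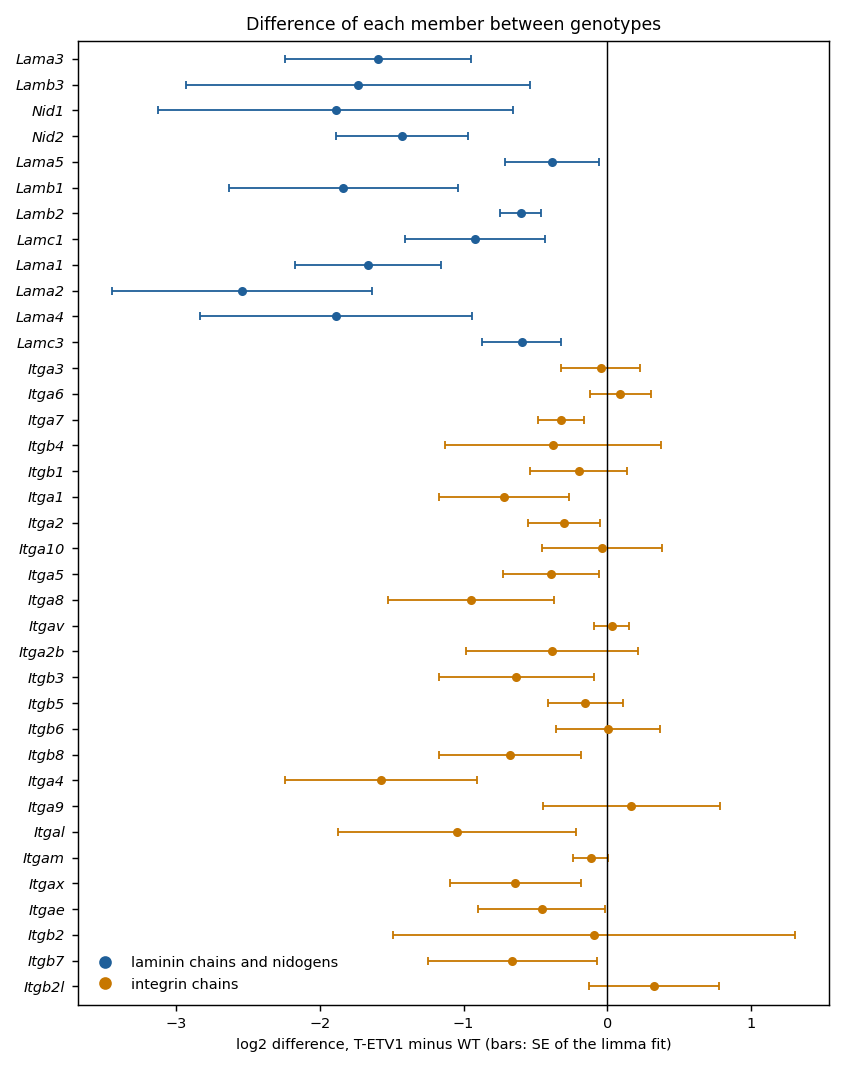
Difference between genotypes of each of the 37 members, as the log2 difference T-ETV1 minus WT (x axis) with bars for the SE of the limma fit, laminins and nidogens in blue and integrins in orange. All 12 blue points lie left of 0, from -2.54 to -0.39, while the orange points lie between -1.57 and 0.32.

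Lama3 and Lamb3 encode the alpha and beta chains of the laminin that anchors hemidesmosomes. Lama3 stood at 10.06, 10.61 and 10.08 on the WT arrays, listed here and below in the order A to C, and at 7.90, 8.05, 10.48 and 8.19 on the T-ETV1 arrays, in the order A to D. T-ETV1 A, B and D lay far below every WT array, whereas T-ETV1 C lay among the WT arrays. The WT mean was 10.25 ± 0.31 (SD, n = 3), the T-ETV1 mean was 8.65 ± 1.22 (SD, n = 4), and the difference was -1.60 ± 0.65 (SE). It did not pass (limma adjusted p = 0.804), but without T-ETV1 C it was -2.20 ± 0.19 and passed (adjusted p = 0.0317). Leaving out the T-ETV1 array that lay among the WT arrays enlarges the difference, so that pass is no separate support. A second, dim probe set of Lama3 had a difference of 0.16.

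Lamb3 had levels of 6.96, 8.61 and 9.74 in WT and of 6.02, 4.89, 9.60 and 6.31 in T-ETV1. Both groups were spread over several log2 units, and T-ETV1 C again stood with WT C. The means were 8.44 ± 1.397 (SD, n = 3) for WT and 6.70 ± 2.03 (SD, n = 4) for T-ETV1, and the difference of -1.73 ± 1.19 (SE) was within the spread between arrays (adjusted p = 0.881).

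Lama5, Lamb1, Lamb2 and Lamc1 encode the chains of the laminins most widespread in epithelial and vascular basement membranes. Lamb2, a beta chain, had levels of 10.07, 10.05 and 10.52 in WT and of 9.59, 9.61, 9.66 and 9.58 in T-ETV1. Every T-ETV1 array was below every WT array, and the T-ETV1 arrays, including C, lay between 9.58 and 9.66. This was the most precise laminin difference, -0.60 ± 0.14 (SE), with a 95% interval of -0.94 to -0.27. Across all genes the groups did not overlap in 6.32%, in 3.90% with T-ETV1 lower and in 2.42% with it higher; among the members this held for Lamb2 and Lama2, 2 of 37, which is near that background.

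Lamb1, the other common beta chain, had levels of 8.88, 9.09 and 9.91 in WT and of 7.21, 6.86, 9.58 and 6.18 in T-ETV1. T-ETV1 A, B and D were below all WT arrays by more than 1 log2 unit, and T-ETV1 C was between WT B and WT C. The difference was -1.84 ± 0.79 (SE) (adjusted p = 0.822), and the other probe sets of Lamb1 were also below 0, at -1.79, -1.22 and -0.13. Lamc1, the gamma chain shared by most laminins, had levels of 9.07, 9.97 and 10.59 and of 9.11, 8.21, 9.85 and 8.65, which overlapped, with a difference of -0.92 ± 0.49 (SE). Lama5, the alpha chain of most adult epithelia, had levels of 9.42, 10.15 and 10.49 and of 9.39, 9.73, 10.19 and 9.24. Its groups overlapped broadly and the difference of -0.39 ± 0.32 (SE) was within the spread (adjusted p = 0.906).

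Lama1, Lama2, Lama4 and Lamc3 encode chains of laminins found mostly outside adult luminal epithelium; Lama2 is the alpha chain of muscle and nerve, and Lama4 that of blood vessels. Lama2 had the largest difference of all members, -2.54 ± 0.91 (SE), with levels of 5.49, 7.40 and 9.77 in WT and of 5.08, 4.94, 5.22 and 4.81 in T-ETV1. The T-ETV1 arrays lay close together, and the WT arrays ranged upward from just above them. As intensities, Lama2 was 28.8, 153 and 857 on the WT arrays, and between 12.1 and 21.3 in T-ETV1. Without WT C the difference was -1.43.

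Lama4 had levels of 7.599, 7.56 and 9.20 in WT and of 4.86, 6.84, 8.32 and 4.90 in T-ETV1. T-ETV1 A and D were well below the others and T-ETV1 C was above WT A and WT B. The difference was -1.89 ± 0.94 (SE) (adjusted p = 0.842). Lama1 was dim, with levels of 4.96, 6.57 and 7.07 and of 4.43, 4.25, 5.10 and 4.36, and its difference was -1.66 ± 0.51 (SE). Of its T-ETV1 arrays A, B and D were below WT A and C was just above it. Lamc3 was also dim, with a mean intensity of 17.1; its levels were 4.77, 5.20 and 5.95 and 4.93, 4.66, 4.74 and 4.52, with a difference of -0.60 ± 0.28 (SE), or -0.28 without WT C.

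Nid1 and Nid2 encode the nidogens. Nid2 had levels of 6.25, 6.55 and 6.38 in WT, which hardly differed from each other, and of 4.39, 4.58, 6.27 and 4.63 in T-ETV1. As with Lama3, T-ETV1 A, B and D were far below WT and T-ETV1 C was at 6.27, between WT A and WT C. As intensities Nid2 was 60.4, 77.5 and 67.4 in WT, 61.3 in T-ETV1 C and between 4.99 and 8.68 in the other T-ETV1 arrays. The difference of -1.43 ± 0.46 (SE) did not pass (adjusted p = 0.758), but passed without T-ETV1 C, at -1.86 ± 0.13 (adjusted p = 0.0216). As with Lama3, the array left out was the T-ETV1 array nearest WT, so that pass is no separate support. Nid1 varied far more within a group, with levels of 6.53, 8.61 and 10.56 in WT and of 6.33, 5.43, 9.25 and 5.71 in T-ETV1. Its difference of -1.89 ± 1.23 (SE) was within that spread (adjusted p = 0.876), and without WT C it was -0.89.

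**Figure D2:**
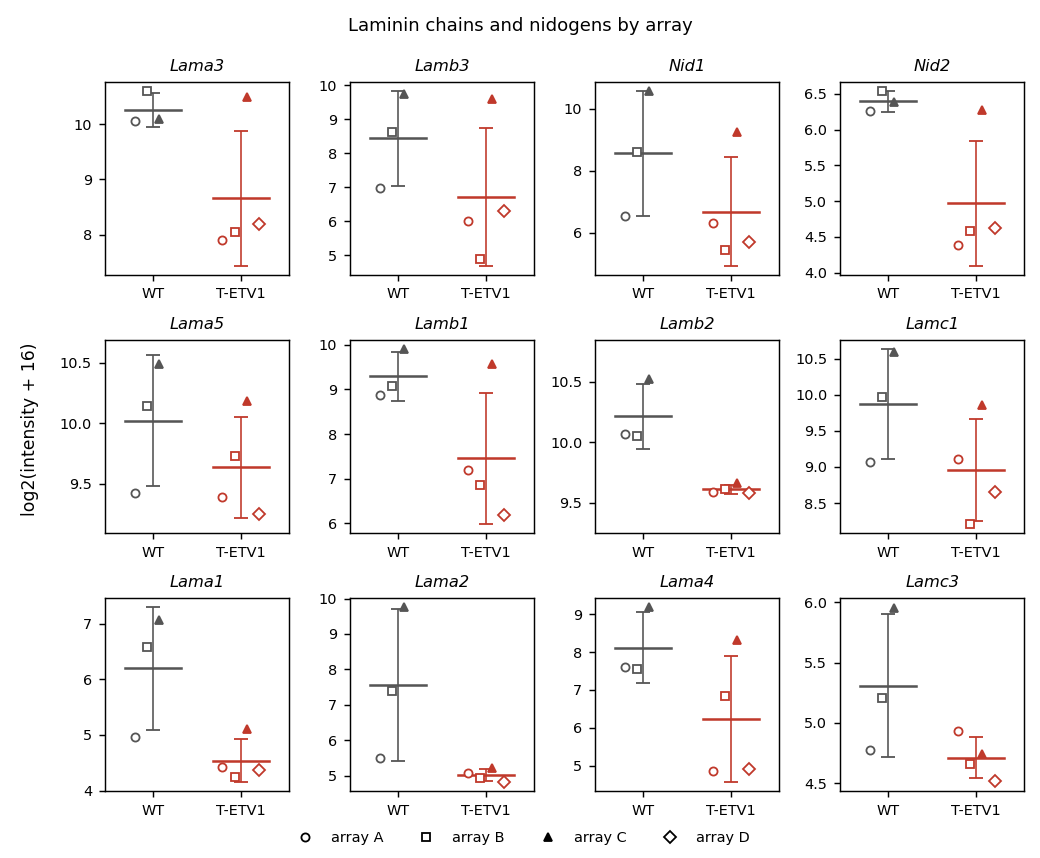
Levels of the 10 laminin chains and 2 nidogens as log2(intensity + 16) (y axes, which differ between panels) in each WT array (grey) and T-ETV1 array (red), with the symbol giving the replicate letter (filled for the C arrays), a line for the group mean and bars for the SD. For Lama3, Lamb1 and Nid2 the filled T-ETV1 C symbol lies among the WT arrays, while for Lamb2 and Lama2 it lies below them.

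Itga6, Itga3, Itga7 and Itgb4 encode the laminin-binding integrin chains, and the alpha 6 chain was what the sort selected on. Itga6 had levels of 11.35, 11.39 and 11.60 in WT and of 11.28, 11.39, 12.08 and 11.41 in T-ETV1. T-ETV1 C was the highest array and the other T-ETV1 arrays lay within the range of WT or just below it. The difference was 0.089 ± 0.21 (SE) with a 95% interval of -0.42 to 0.59, and a second bright probe set gave -0.18. Itgb4, the partner of alpha 6 in hemidesmosomes, had levels of 6.31, 7.69 and 8.48 in WT and of 5.67, 7.55, 8.40 and 6.85 in T-ETV1. Both groups ran over more than 2 log2 units, with the C arrays highest in each, and the difference of -0.38 ± 0.75 (SE) was within that spread. Itga3, whose product pairs with beta 1, had levels of 9.29, 9.22 and 10.005 and of 9.09, 9.27, 9.93 and 9.53, with a difference of -0.047 ± 0.27 (SE) and an interval of -0.70 to 0.60. The C array was the highest of its group in Itga3, Itgb4 and Itga6 alike. Itga7, the laminin receptor of muscle, was dim, with a mean intensity of 10.7 and a difference of -0.32 ± 0.16.

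Itgb1, the common partner of most alpha chains, had levels of 9.85, 9.80 and 10.49 in WT and of 10.08, 9.51, 10.50 and 9.28 in T-ETV1. Its T-ETV1 arrays both exceeded and undershot WT, and the difference of -0.20 ± 0.33 (SE) had an interval of -1.0 to 0.60. Of its 6 probe sets the other bright one gave -0.31 and the dim ones 0.03 to 0.56. Itgav, the alpha chain of receptors that bind RGD ligands and activate latent TGF-beta, was the least spread out of the members with a mean intensity over 500. Its levels were 12.11, 12.09 and 12.31 in WT and 12.07, 12.24, 12.39 and 12.12 in T-ETV1, a difference of 0.031 ± 0.12 (SE) with an interval of -0.26 to 0.32. Itgb5, a partner of alpha v, had levels of 9.55, 9.45 and 10.04 and of 9.52, 9.48, 10.06 and 9.06, and a difference of -0.15 ± 0.26 (SE) with an interval of -0.77 to 0.47.

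The other partners of alpha v were Itgb8, Itgb6 and Itgb3. Itgb8 had levels of 8.15, 9.02 and 9.59 in WT and of 7.86, 7.63, 9.32 and 8.17 in T-ETV1, again with the C array highest in each group, and a difference of -0.68 ± 0.50 (SE), or -0.34 without WT C. Itgb6, the epithelial partner, had a difference of 0.0024 ± 0.36 that took either sign with the processing. Itgb3, the beta chain of platelets and growing vessels, was dim and stood at 4.57, 4.43, 6.18 and 4.498 on its T-ETV1 arrays, where C was level with WT C at 6.18. Of the other alpha chains for RGD ligands, Itga5, the fibronectin receptor chain, had -0.39 ± 0.33, Itga8, of mesenchymal cells, -0.95 ± 0.58, and Itga2b, of platelets and their precursors, -0.38 ± 0.60. Itga8 and Itga2b were highest in WT C, at 6.73 and 7.87, and without WT C the differences of Itga5 and Itga8 were -0.042 and -0.29. T-ETV1 C was not high for Itga8 and Itga2b, at 4.21 and 5.26.

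Itga1, Itga2 and Itga10 encode alpha chains of collagen receptors. Itga1 had levels of 8.11, 9.01 and 9.97 in WT and of 7.92, 8.18, 8.92 and 8.23 in T-ETV1, which overlapped, with a difference of -0.72 ± 0.45 (SE) that was -0.25 without WT C. Itga2 and Itga10 were dim, with mean intensities of 15.04 and 41.1 and differences of -0.30 ± 0.25 and -0.038 ± 0.42; that of Itga10 turned above 0 after both other scalings.

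The remaining integrin chains belong mostly to leukocytes, which the sort was set to leave out by CD45. Itgb2, the beta chain of leukocyte integrins, had levels of 4.90, 4.53 and 8.84 in WT and of 4.69, 4.67, 8.72 and 5.92 in T-ETV1. It was high in both C arrays and low in the others with T-ETV1 D a little above them. The 95% interval of its difference ran from -3.44 to 3.25. Itgal, the alpha chain of lymphocytes, stood at 7.98 in WT C against 4.32 to 5.51 in the other arrays. Itgax, of dendritic cells, likewise stood at 6.23 in WT C against 4.17 to 4.51. Itgb7, of gut-homing lymphocytes, was at 7.94 in WT C and 6.84 in T-ETV1 C against 5.33 to 6.03 elsewhere. Itga4, a chain of leukocytes and mesenchymal cells, had the largest integrin difference, -1.57 ± 0.67 (SE), with levels of 6.38, 5.13 and 8.03 in WT and of 4.70, 4.56, 5.68 and 4.81 in T-ETV1 (adjusted p = 0.818). Its other probe sets were dimmer, with mean intensities of 4.94 to 15.9, and had differences of -0.72, -0.12, -0.0060 and 0.028. Without WT C the differences of Itgal, Itgax, Itgb7 and Itga4 were -0.0022, -0.030, 0.0024 and -0.81. Itgam, the alpha chain of macrophages and granulocytes, was near the bottom of the scale on every array, with a mean intensity of 5.80, also on the arrays where Itgb2 was high. Itgae, of intraepithelial lymphocytes, had -0.46 ± 0.44, Itga9, a receptor chain for tenascin, 0.17 ± 0.62, and Itgb2l, a relative of Itgb2, 0.32 ± 0.45. Another probe set of Itga9 was about as bright, with a mean intensity of 63.7 against 63.8, and had a difference of -1.21. The sign of Itga9 therefore depends on which of these probe sets stands for it.

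**Figure D3:**
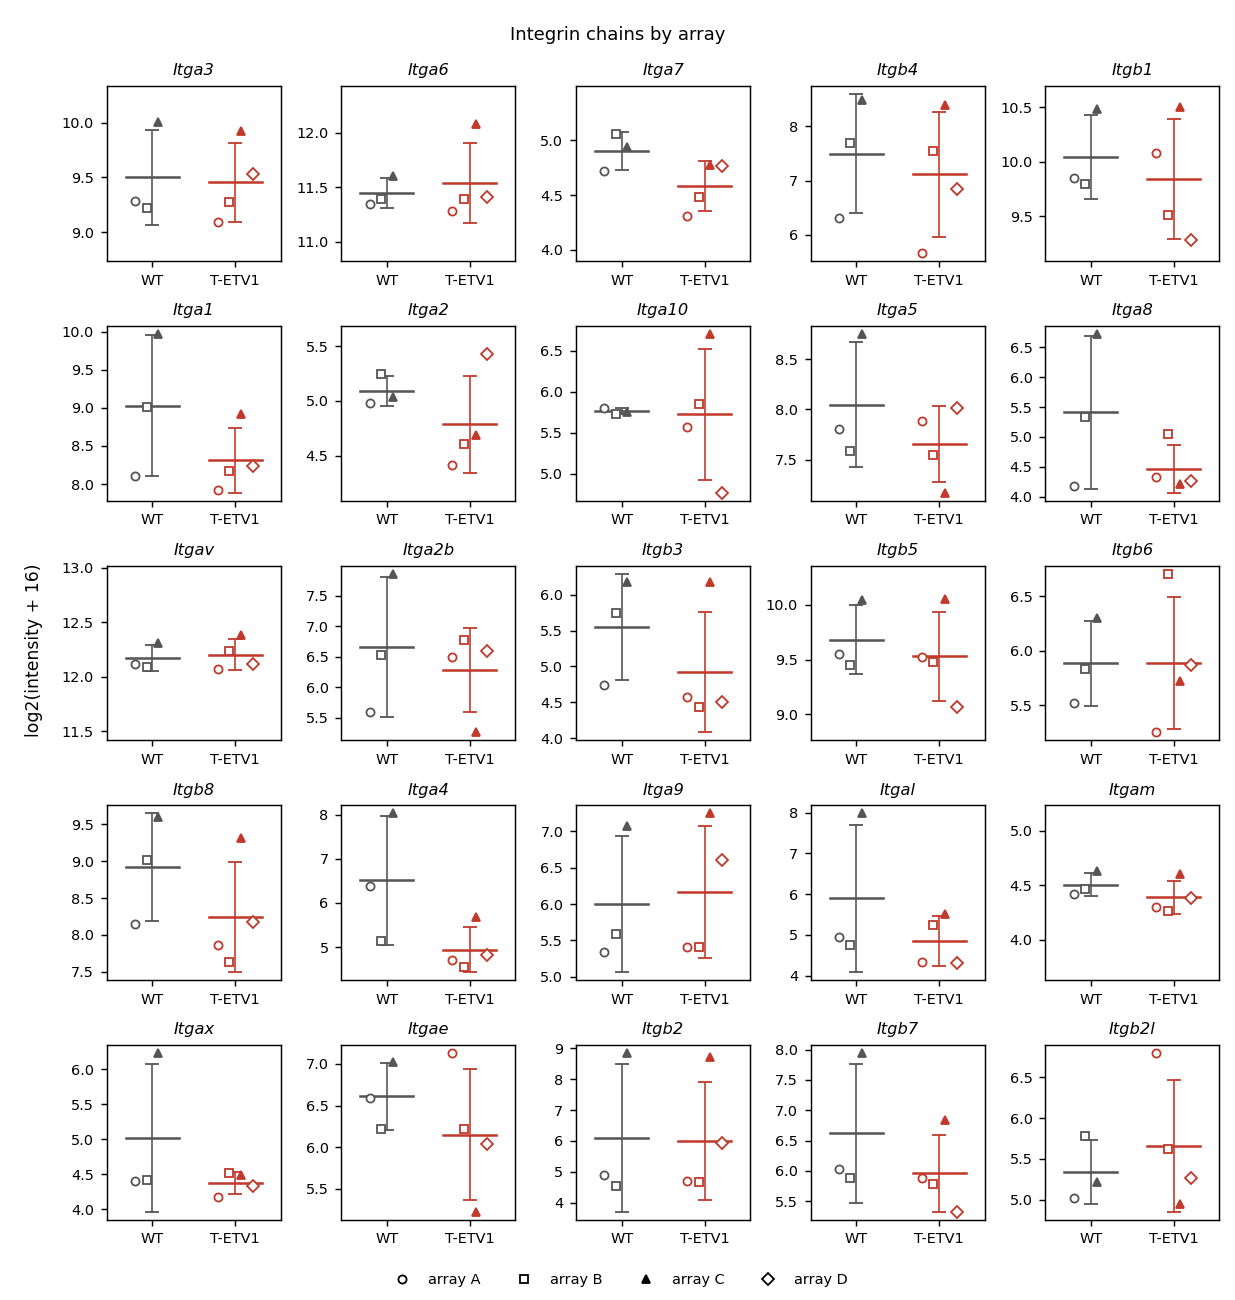
Levels of the 25 integrin chains as log2(intensity + 16) (y axes, which differ between panels) by genotype, with the symbol giving the replicate letter (filled for the C arrays), a line for the group mean and bars for the SD. Itgav lies between 12.07 and 12.39 on all arrays, whereas Itgb2 is at 8.84 and 8.72 in the C arrays and Itgal and Itgax are high in WT C alone.

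The laminins and nidogens varied between the arrays of a genotype as well as between genotypes. The median over the 12 genes of the deviation from each gene's mean over 7 arrays was -0.24, 0.91 and 1.45 on the WT arrays A to C, and -1.03, -1.07, 0.60 and -1.05 on the T-ETV1 arrays A to D. WT C was the highest array of all in 10 of the 12 (Lama3 and Nid2, highest in WT B, were the others), against 4400 of the 18193 genes. T-ETV1 C was the highest T-ETV1 array in 11 of the 12, Lamc3 being the exception, against 6529 of all genes. Within letter pairs, T-ETV1 was the lower in all 3 pairs for 9 of the 12 genes, against 3032 of all genes. The exceptions were Lama3, at -2.17, -2.56 and 0.40 for the pairs A, B and C, Lamc1 (0.040, -1.76 and -0.74) and Lamc3 (0.16, -0.54 and -1.21). For the 25 integrins the median deviation was -0.21, -0.10 and 0.93 in WT and -0.41, -0.18, 0.21 and -0.31 in T-ETV1, and 8 of the 25 were lower in all 3 pairs. T-ETV1 D has no pair.

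Markers of other cell types also differed between the arrays of a genotype. The 8 basal markers, Krt5, Krt14, Trp63 and Aqp3 among them, had a median deviation of -0.034, 1.31 and 2.34 in WT and -2.23, -1.33, 2.30 and -0.99 in T-ETV1. Aqp3 went the other way, at 4.14, 4.16 and 4.25 in WT and 4.10, 5.93, 8.94 and 8.64 in T-ETV1. Its difference was 2.72 ± 1.18 (SE). Both C arrays were alike in the basal median, as they were in Lamb3 and Itgb4, but not in every marker. Krt17 was 9.47 in WT C and 7.41 in T-ETV1 C. The 10 endothelial markers had 0.19, 1.11 and 2.33 in WT and -1.12, -1.30, 0.49 and -1.37 in T-ETV1, and the 9 smooth muscle and pericyte markers -0.31, 1.01 and 2.51 in WT and -0.90, -1.15, 0.47 and -0.84 in T-ETV1. The 8 fibroblast markers had -0.45, 0.66 and 3.002 in WT and -2.09, -1.28, 0.20 and -0.87 in T-ETV1, where WT C was far above T-ETV1 C, as in Lama2. The 10 leukocyte markers had -1.12, -1.42 and 4.28 in WT and -0.53, -1.75, 1.53 and -0.98 in T-ETV1, with WT C highest, as in Itgal and Itgax, and with WT A and WT B below T-ETV1 A and D, unlike the laminins and nidogens. The 7 luminal markers stayed between -0.058 and 0.096. All 10 endothelial, 9 smooth muscle and 8 fibroblast markers were below 0 in T-ETV1, as were 7 of 8 basal, 8 of 10 leukocyte and 5 of 7 luminal markers, and none of these passed the threshold; unadjusted p under 0.05 was reached by 5 endothelial, 3 fibroblast and 3 smooth muscle markers, all lower. No marker was at the lowest value on all arrays. Their part in the laminin, nidogen and integrin differences was not tested.

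**Figure D4:**
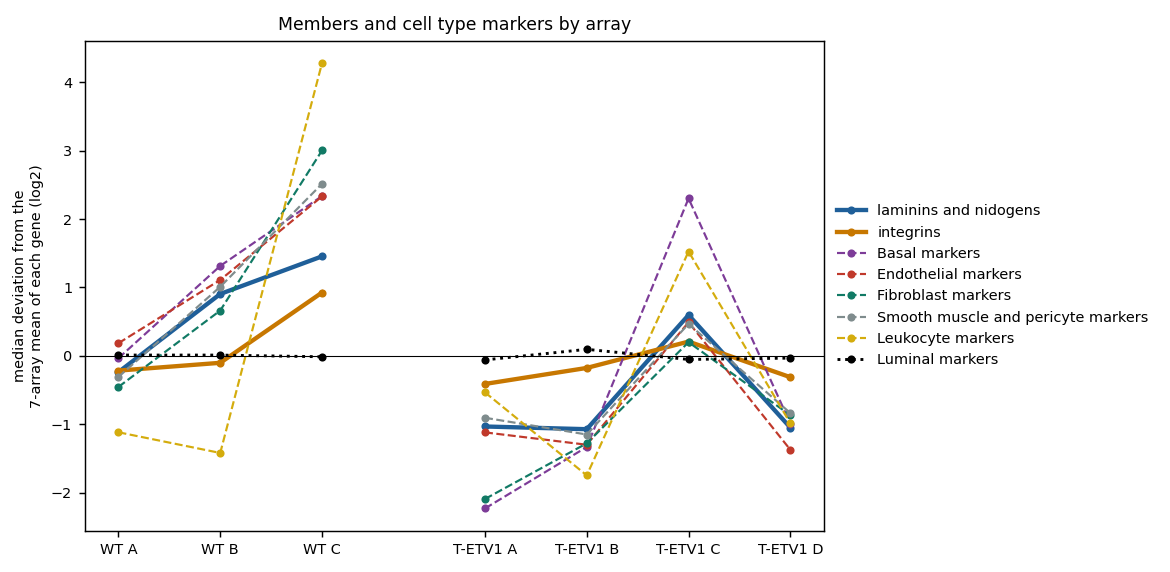
Median deviation of each gene list from its genes' means over the 7 arrays, in log2 units (y axis), for each array (x axis), with laminins and nidogens (blue) and integrins (orange) as thick lines and marker lists of 6 cell types as dashed or dotted lines. The thick blue line is highest in WT C at 1.45 and lies between -1.07 and -1.03 in T-ETV1 A, B and D, while luminal markers stay close to 0.

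How many members passed differed with the C arrays left out. Without T-ETV1 C, 2 members passed the threshold, Lama3 and Nid2, among 27 genes (0.148% of all). In both, T-ETV1 C was the T-ETV1 array that lay among the WT arrays. An unadjusted p under 0.05 was then reached by 10 of the 12 laminins and nidogens and 3 of the 25 integrins, against 9.84% of all genes, and the groups did not overlap in 9 of the 12 and 4 of the 25, against 16% of all genes. Lamb1 was at -2.54 (adjusted p = 0.113) and Lamb3 at -2.70 (adjusted p = 0.351). Without both C arrays, Lama3 (-2.29, adjusted p = 0.0427) and Nid2 (-1.87, adjusted p = 0.0359) also passed, among 68 genes (0.374%). Groups then did not overlap in 13 members, against 26.0% of all genes, and 10 members had an unadjusted p under 0.05, against 9.42%. Without WT C none of the members passed among the 7 genes that did, and 4 had an unadjusted p under 0.05, against 5.38% of all genes; all 12 laminins and nidogens were still below 0, from -1.68 (Lama3) to -0.15 (Lama5), whereas 13 of 25 integrins were. Beside the values given with the genes, leaving out WT C took Lama5 from -0.39 to -0.15, Lamc1 from -0.92 to -0.56 and Lamb3 from -1.73 to -1.08. Among the integrins, it took Itgb3 to -0.32, Itgae to -0.25 and Itgam to -0.055. It turned Itgb4 to 0.12, Itga2b to 0.22, Itga3 to 0.20, Itgb1 to 0.021, Itgb5 to 0.027 and Itgb2 to 1.28.

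**Figure D5:**
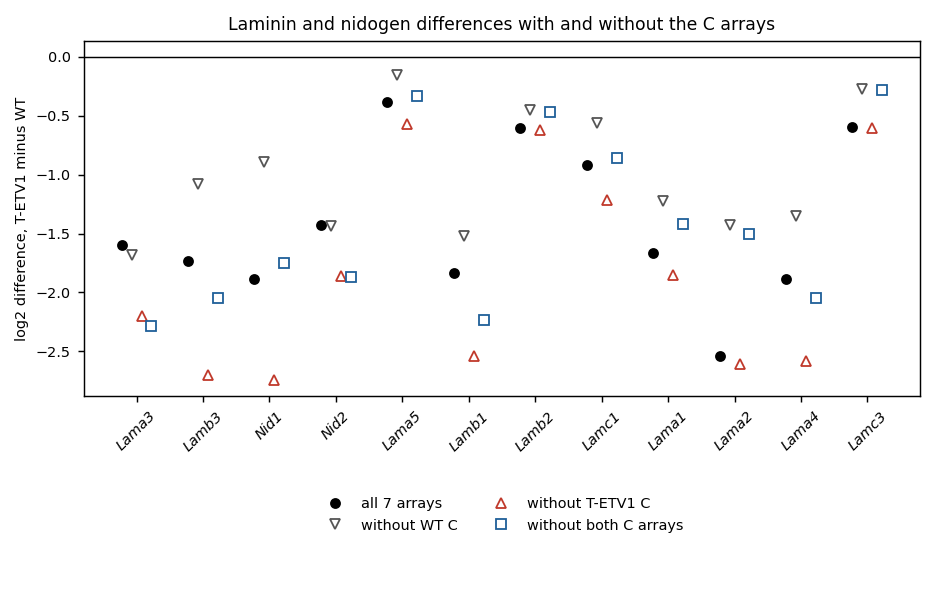
Log2 difference T-ETV1 minus WT (y axis) of each laminin and nidogen gene with all 7 arrays (filled circles), without WT C, without T-ETV1 C and without both C arrays (open symbols). Every point lies below 0; leaving out T-ETV1 C takes Lama3 from -1.60 to -2.20, and leaving out WT C takes Lama2 from -2.54 to -1.43.

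Other genes of the basement membrane also had lower means in T-ETV1. All 14 measured basement membrane genes outside the laminins and nidogens had a difference below 0, with a median of -1.32, and none passed the threshold. Unadjusted p under 0.05 was reached by Hspg2, which encodes perlecan, at -1.86 ± 0.72, and by Col15a1, a collagen of vessel and muscle basement membranes, at -2.30 ± 0.72. Col15a1 had levels of 5.72, 6.46 and 8.97 in WT and of 4.84, 4.58, 4.88 and 4.69 in T-ETV1, so the groups did not overlap. The collagen IV chains were unlike each other. Col4a2 stood at 7.95, 9.02 and 9.98 in WT and 4.55, 4.76, 10.04 and 5.19 in T-ETV1, with T-ETV1 C as high as WT C, whereas Col4a6 differed by -0.18 ± 0.15 and Col4a5 by -0.10 ± 0.35.

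Hemidesmosome genes and non-integrin laminin receptors, 8 of 8 below 0, had a median of only -0.084. Bcam, the Lutheran receptor for the alpha 5 laminin chain, had -1.45 ± 0.49, with levels of 7.69, 7.46 and 8.94 in WT and of 6.41, 5.88, 7.50 and 6.53 in T-ETV1, where A, B and D were below WT and C was just above WT B. Col17a1, a hemidesmosome collagen, had -1.47 ± 1.35, while Dag1, which encodes dystroglycan, had -0.090 ± 0.10 and Cd151, a partner of the laminin-binding integrins, -0.026 ± 0.14. Of 20 measured integrin adaptors 15 were below 0, with a median of -0.15. Those with an unadjusted p under 0.05 were Lims2 (-1.97 ± 0.62) and Tgfb1i1 (-1.89 ± 0.72), which are LIM proteins of focal adhesions, and, in the other direction, Tln2, a talin (0.56 ± 0.22). Of 9 other integrin ligands 8 were below 0. Icam1 and Vcam1, the leukocyte counter-receptors, and Tnc, a tenascin, had groups that did not overlap, at -2.25 ± 0.75, -2.29 ± 0.84 and -1.11 ± 0.31. In all, 8 of the 51 measured pathway genes were lower at an unadjusted p under 0.05 and 1 was higher, against 4.12% and 2.00% of all genes, the groups did not overlap in 5, all lower, against 3.90%, and none passed after adjustment. The genes with values here that had no unadjusted p under 0.05 were chosen after their values were seen.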

How the data were processed

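Luminal cell RNA was amplified with a NuGEN kit and hybridised to Affymetrix mouse expression arrays, per the labels' protocols. The authors deposited linear intensities of 45037 probe sets for each of 7 arrays. How probes were summarised and arrays scaled is not given in the sources used here. Array medians of log2(intensity + 16) differed by at most 0.476, under a limit of 0.5, and the deposited scaling was kept. GEO's platform annotation paired 34945 probe sets with 1 gene and 932 with several and did not list 9160; current symbols were taken by Entrez ID, and the probe set with the highest mean stood for a gene. The fit was limma 3.58.1 in R 4.3.3 (lmFit, eBayes, two-sided, 6.67 total degrees of freedom). Its code was run on simulated data with independent noise for each gene and array. That run cannot show how the fit handles shifts shared by many genes of an array. Deviations from the group means correlated at 0.281, 0.217 and 0.356 for the letters A, B and C, all above 0.1. Of the pairs with unlike letters, WT A with T-ETV1 D was also above 0.1, at 0.187, and the others ran from -0.320 to 0.039. The limit alone therefore does not show that a letter marks a pair. A fit with the letter as a block was run beside the main one. Alternatives were 2 other scalings, pseudocounts of 1 and 64, filters on the lowest 30% and 50% of genes, the mean of probe sets, an intensity trend, array weights, the block, and leaving out arrays. Members and lists were chosen with earlier results of these data known. Named in full are all laminin and nidogen genes, the receptors Itga3, Itga6 and Itgb4, and integrins with an unadjusted p under 0.05 or a mean intensity over 500; other integrin values were chosen after they were seen.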

Additional observations from a re-analysis of the deposited data

Results flagged for a closer look

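In 5 of the 37 members 1 T-ETV1 array lay far from the other T-ETV1 arrays, past Dixon's 95% limit for 4 arrays, which chance gives in about 5% of groups. In 4 of the 5 that array was T-ETV1 C, which was the highest T-ETV1 array in 6529 of the 18193 genes. The share of all genes past this limit was not computed, so the 5 of 37 have no background beside them. Itga6 was 12.08 in T-ETV1 C and at most 11.41 in the other T-ETV1 arrays. Itga8 was 5.05 in T-ETV1 B and at most 4.33 in the other T-ETV1 arrays. Itgb3 was 6.18 in T-ETV1 C and at most 4.57 in the other T-ETV1 arrays. Lama3 was 10.48 in T-ETV1 C and at most 8.19 in the other T-ETV1 arrays. Nid2 was 6.27 in T-ETV1 C and at most 4.63 in the other T-ETV1 arrays.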

How the results depend on the processing

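All 12 laminin and nidogen genes kept a difference below 0 under each alternative fit (207 values), and 1 of the 11 values of their further probe sets, that of Lama3 at 0.16, was above 0. Of the integrins 9 of 25 kept their sign in every alternative fit and 16 did not, in 49 of 426 values, and none passed in any. Signs turned as follows, and the cause was not tested. After quantile normalization the sign turned for Itga10 (0.064) and Itga3 (0.013). After median centring the sign turned for Itga10 (0.099), Itga3 (0.089), Itgam (0.021) and Itgb2 (0.043). With a pseudocount of 1 the sign turned for Itgb2 (0.0087) and Itgb6 (-0.023). With a pseudocount of 64 the sign turned for Itga10 (0.021). With the mean of probe sets the sign turned for Itga6 (-0.044), Itga9 (-0.31), Itgb1 (0.11) and Itgb6 (-0.23). With array weights the sign turned for Itga3 (0.065), Itgb2 (0.53) and Itgb6 (-0.043). With the replicate block, a paired fit over the letters, the sign turned for Itga10 (0.28) and Itgb5 (0.0042). Without both C arrays the sign turned for Itga2b (0.56), Itga3 (0.046), Itga5 (0.12), Itga6 (-0.014), Itgae (0.060) and Itgb2 (0.37). Single probe sets of opposite sign were those of Itga4 (0.028), Itga5 (0.023), Itga6 (-0.18), Itga8 (0.21), Itga9 (-1.21), Itgav (-0.18), Itgb1 (0.56, 0.36, 0.029, 0.19), Itgb2l (-0.24) and Itgb6 (-0.46). Leaving out 1 array at a time, differences that took both signs ran as follows: Itga10 -0.36 to 0.28, Itga2b -0.92 to 0.22, Itga3 -0.20 to 0.20, Itga6 -0.090 to 0.18, Itga9 -0.19 to 0.70, Itgav -0.031 to 0.10, Itgb1 -0.42 to 0.021, Itgb2 -1.001 to 1.28, Itgb2l -0.058 to 0.56, Itgb4 -0.97 to 0.12, Itgb5 -0.33 to 0.027, Itgb6 -0.27 to 0.21, Itgb7 -1.03 to 0.0024. Over the same 7 fits the genes past the threshold numbered 0 to 27, members past it 0 to 2, members with an unadjusted p under 0.05 2 to 13, and members whose groups did not overlap 2 to 13. Without both C arrays these were 68, 2, 10 and 13. Members with an unadjusted p under 0.05 numbered 12 with array weights (11 laminins or nidogens, against 12.9% of all genes) and 9 with the replicate block, and that block called no member. Leaving out the lowest 50% of genes kept 13 members, 5 of them laminins or nidogens. Of the 13, 11 were lower, against 54.9% of all genes kept. An unadjusted p under 0.05 was reached by 2, against 5.72%. The groups did not overlap in 1, and the share of all kept genes without overlap is not given here. The median over laminins and nidogens ran from -2.03 to -0.92 over the alternatives and that over integrins from -0.47 to -0.0022, the latter without WT C. The spread between arrays, as the SD of array medians within genotypes, was 0.84 for laminins and nidogens and 0.45 for integrins. For the integrins this spread is larger than the size of their median difference. The number of arrays, 3 against 4, and dim probe sets limit what could be seen.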
